A study of Mus musculus with 3 samples.

Results

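Transforming growth factor-β (TGF-β) acts through a short chain of secreted and membrane proteins, and the genes described here are 10 of its members, selected by symbol from the 31053 genes in the count files. They were the ligands *Tgfb1*, *Tgfb2* and *Tgfb3*, the receptors *Tgfbr1* and *Tgfbr2*, the latent TGF-β binding proteins *Ltbp1*, *Ltbp2*, *Ltbp3* and *Ltbp4*, and *Tgfbi*, a secreted matrix protein named for its induction by TGF-β. Each symbol occurred once in the files, and all 10 were followed in the stromal cells and in the macrophages of day 5 ectopic masses.

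The 3 ligands are made as precursors, and each stays bound to its own propeptide in a latent complex. LTBP1 and LTBP3 tie that complex to the extracellular matrix, LTBP4 does so less efficiently, and LTBP2 belongs to the same family and to fibrillin microfibrils but does not bind the latent ligand. Released ligand binds the type II receptor TGFBR2, which phosphorylates the type I receptor TGFBR1, and TGFBR1 in turn phosphorylates SMAD2 and SMAD3. In developing cartilage the pathway is known to act on the condensation of progenitors and on the pace of chondrocyte maturation, and macrophages are a known source of the ligand TGF-β1.

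By GENCODE vM21 on the mm10 build, *Tgfb1* lies at chr7:25687002-25705077 on the plus strand. The other ligand genes lie on the minus strand, *Tgfb2* at chr1:186622792-186705989 and *Tgfb3* at chr12:86056745-86079041. Of the receptor genes, *Tgfbr1* lies at chr4:47353222-47414931 on the plus strand and *Tgfbr2* at chr9:116084293-116175360 on the minus strand. The binding protein genes lie on 4 chromosomes, *Ltbp1* at chr17:75005568-75392512 (plus), *Ltbp2* at chr12:84783212-84876532 (minus), *Ltbp3* at chr19:5740904-5758532 (plus) and *Ltbp4* at chr7:27305136-27337692 (minus). *Tgfbi* lies at chr13:56609523-56639562 on the plus strand.

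RefSeq promoter entries matched 9 of the 10 symbols, and *Tgfb3* had none. The 250 bases before the start are printed for the ligand called higher in Vehicle stroma, *Tgfb2*, and for the 2 receptors called lower there, *Tgfbr1* and *Tgfbr2*. On GRCm38.p6 these are chr1:186705990-186706239 (minus strand), chr4:47352972-47353221 (plus strand) and chr9:116175364-116175613 (minus strand). Capitals mark exact matches on either strand, and no 2 of them overlapped. One motif searched for was GGGCGG, which Sp1 family proteins are known to bind. The others were TATAAA, which is the core promoter element near many start sites, CACGTG, which is one form of the E-box, CAGACA, which is a site that SMAD proteins can bind, and AGGTCA, the half-site of retinoid receptors.
Tgfb2: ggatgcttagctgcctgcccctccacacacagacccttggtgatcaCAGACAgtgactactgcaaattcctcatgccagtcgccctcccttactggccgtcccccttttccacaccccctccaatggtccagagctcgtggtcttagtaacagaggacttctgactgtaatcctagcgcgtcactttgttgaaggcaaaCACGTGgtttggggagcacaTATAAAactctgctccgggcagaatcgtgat
Tgfbr1: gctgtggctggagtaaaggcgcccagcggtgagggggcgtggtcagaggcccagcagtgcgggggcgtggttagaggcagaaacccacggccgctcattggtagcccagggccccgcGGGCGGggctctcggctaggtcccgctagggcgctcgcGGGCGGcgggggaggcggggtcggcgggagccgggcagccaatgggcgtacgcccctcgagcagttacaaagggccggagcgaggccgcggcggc
Tgfbr2: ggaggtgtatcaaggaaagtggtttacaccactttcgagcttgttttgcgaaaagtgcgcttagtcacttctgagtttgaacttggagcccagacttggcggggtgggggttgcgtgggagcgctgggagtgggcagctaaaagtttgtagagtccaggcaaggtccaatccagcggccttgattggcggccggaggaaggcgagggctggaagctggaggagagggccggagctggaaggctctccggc
The *Tgfb2* stretch held TATAAA 31 bases, CACGTG 51 bases and CAGACA 204 bases before the start, and its GC content was 53.6%. That of *Tgfbr1* held GGGCGG 2 times, 133 and 95 bases before the start, with a GC content of 74.8%. It is the *Tgfbr1* entry that ends at the annotated gene start. A second entry, chr4:47385966-47386215, held CAGACA 203 bases before its start and no GGGCGG, with a GC content of 52.8%, and is not printed. None of the 5 motifs was found in the *Tgfbr2* stretch, whose GC content was 58.4%. Over 32851 promoter windows of the same length, 12.4% held TATAAA, 6.02% CACGTG, 17.1% CAGACA, 32.7% GGGCGG and 14.0% AGGTCA. These matches describe letters and were not tested for binding.

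The cells came from subcutaneous Matrigel implants in female CD-1 mice of 6 to 8 weeks, harvested on day 5, with 1 droplet library for each of 3 conditions. Matrigel-only mice carried the gel alone and were given nothing by mouth. Vehicle mice carried gel with recombinant BMP2, a bone morphogenetic protein that drives cartilage formation, and were gavaged with corn oil and DMSO. Palo mice carried the same gel with BMP2 and were gavaged with palovarotene, a retinoic acid receptor γ agonist, at 4 mg/kg. Thus Vehicle differed from Matrigel-only in both BMP2 and gavage, which cannot be told apart here, and Palo from Vehicle in the drug. Each library pooled dissociated cells of several masses, so that a difference between libraries has no replicate check, and no test or p-value is given. Intervals cover counting error only.

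After the limits on genes and mitochondrial reads, 8728 Matrigel-only, 5478 Vehicle and 7297 Palo cells remained. A cell was called stromal when *Col1a1*, *Col1a2*, *Col3a1*, *Dcn* and *Lum* made up at least 1% of its UMIs (unique molecular identifiers, 1 for each captured transcript), and a macrophage when they made up less and *Csf1r* or *C1qa* was detected. There were 2085, 1373 and 1184 stromal cells in the Matrigel-only, Vehicle and Palo libraries, with medians of 9082, 17114 and 12955 UMIs. Macrophages numbered 5812, 3253 and 5661, with medians of 3090.5, 3646 and 4254 UMIs. All 12 stromal markers outside the rule, such as *Pdgfra* and *Prrx1*, had a UMI in at least 10% of stromal cells of each library, and all 12 macrophage markers did in macrophages. The summed level of the stromal markers was 29684 to 35761 UMIs per 1000000 UMIs of the class (CPM) in stromal cells and 188 to 355 CPM in macrophages. Of the macrophage markers, 9, 9 and 10 also reached 10% of the stromal cells of Matrigel-only, Vehicle and Palo. Their summed level was 706 to 1592 CPM in stromal cells and 31772 to 41920 CPM in macrophages. Passing cells of different libraries shared 8 to 17 barcodes per pair.

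The classes held the family very unevenly, and the ligands divided between them. Stromal cells held 20049136 of the 42335347 UMIs of passing cells in Matrigel-only, 23591212 of 40180209 in Vehicle and 15832240 of 44682600 in Palo. A share of a gene's UMIs therefore depends on these totals as well as on the level of the gene. Of the *Tgfb1* UMIs in all cells, macrophages held 82.3% in the Matrigel-only library, 66.6% in that of Vehicle and 86.3% in that of Palo. *Tgfb3* was the reverse, with 94.3%, 94.9% and 96.1% of its UMIs in stromal cells. *Tgfb2* also lay mainly in stroma, at 89.8% and 96.7% in Matrigel-only and Vehicle, but only 69.2% in Palo. Stromal cells held 98.9% to 99.0% of *Ltbp2* UMIs and 95.9% to 98.9% of *Ltbp4* UMIs in the 3 libraries. The receptors were divided, stromal cells holding 69.3% to 80.0% of *Tgfbr2* UMIs. For *Tgfbr1* the stromal share in the same order was 59.6%, 32.5% and 39.2%. Macrophages held 74.5%, 46.3% and 82.2% of *Tgfbi* UMIs, and stroma held 20.1%, 50.0% and 15.2%.

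**Figure D1:**
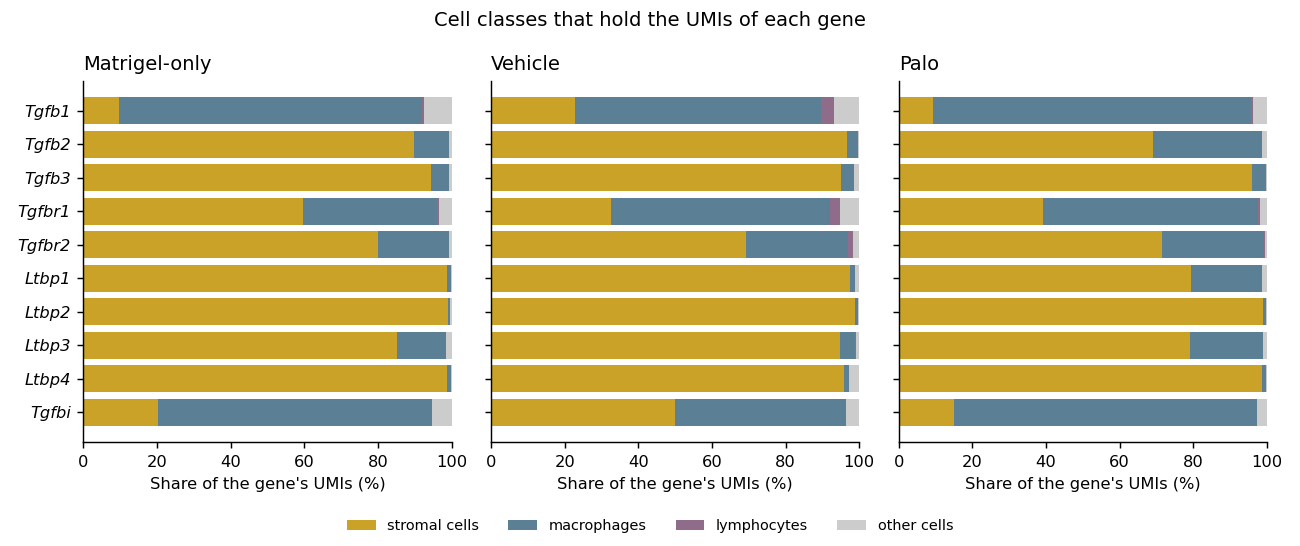
Share of each gene's UMIs (x axis, percent) held by stromal cells, macrophages, lymphocytes and all other passing cells, in 1 panel per library. *Tgfb1* lies mostly in macrophages in each library and *Tgfbi* in Matrigel-only and Palo, *Tgfb3*, *Ltbp2* and *Ltbp4* lie almost wholly in stroma, and the stromal share of *Tgfbi* is largest in Vehicle, at 50.0%.

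In stromal cells the type II receptor was much lower, and *Tgfbi* much higher, in Vehicle than in either other library. A ratio of CPM of at least 2 was taken as a call, among genes averaging at least 5 CPM over the libraries. All 10 genes passed that filter in stroma. Vehicle against Matrigel-only, 2 were called higher and 3 lower, when 14.5% of the 10311 genes tested were called. Palo against Vehicle, 2 were higher and 2 lower, with 12.0% of all genes called, and Palo against Matrigel-only 1 was higher and 1 lower, with 3.11% called. The median log2 ratio of the 10 in these comparisons was -0.26, 0.26 and -0.05, beside -0.04, 0.02 and -0.03 over all genes tested. Vehicle enters 2 of the comparisons and Matrigel-only 2, so their values are not independent.

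Among the ligands in stroma, *Tgfb2* was at 56.8 CPM in Matrigel-only (95% interval 53.6 to 60.2), 155 CPM in Vehicle (150.1 to 160.2) and 54.8 CPM in Palo (51.2 to 58.5). Vehicle was therefore the high library, by 2.73-fold over Matrigel-only (2.55 to 2.92) and 2.83-fold over Palo, whose interval overlapped that of Matrigel-only. *Tgfb3* was at 61.3 CPM in Matrigel-only (57.9 to 64.8), 96.4 CPM in Vehicle (92.5 to 100.5) and 132 CPM in Palo (127 to 138). Here Palo stood highest, 2.16-fold above Matrigel-only (2.01 to 2.31), and its 1.37-fold ratio to Vehicle did not reach 2. *Tgfb1* was at 31.3, 58.2 and 49.4 CPM, with no ratio of 2 between any pair. Its ratio of Vehicle to Matrigel-only was 1.86, and its log2 ratio rose from 0.90 to 1.39, past a call, when stromal cells with a UMI of *Csf1r* or *C1qa* were left out. Macrophage markers were present in stromal cells at a summed 1592, 706 and 1270 CPM, and *Tgfb1* at the macrophages' own ratio to those markers would come to 10.3, 6.17 and 7.93 CPM.

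Both receptors were lowest in the stroma of Vehicle. *Tgfbr2* was at 797 CPM in Matrigel-only (784 to 809), 159 CPM in Vehicle (154 to 165) and 603 CPM in Palo (591 to 615). It was 5.00-fold lower in Vehicle than in Matrigel-only (4.82 to 5.18) and 3.78-fold higher in Palo than in Vehicle (3.64 to 3.93), while Palo was 1.32-fold below Matrigel-only. *Tgfbr1* was at 42.2 CPM (39.4 to 45.1), 18.3 CPM (16.6 to 20.1) and 40.8 CPM (37.7 to 44.1). It was 2.30-fold lower in Vehicle than in Matrigel-only (2.05 to 2.59) and 2.23-fold higher in Palo than in Vehicle (1.97 to 2.52), and the Matrigel-only and Palo intervals overlapped. After each cell was thinned to 1400 UMIs, a *Tgfbr2* UMI was found in 61.1% of Matrigel-only, 16.3% of Vehicle and 51.5% of Palo stromal cells. Without thinning the shares were 91.7%, 60.0% and 95.5%, although Vehicle cells were the deepest. Thinning left out 104, 42 and 29 shallower cells.

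The binding proteins did not move as a block. *Ltbp4* was at 180 CPM in Matrigel-only (174 to 186), 52.1 CPM in Vehicle (49.2 to 55.1) and 58.0 CPM in Palo (54.4 to 61.9). It was thus low in both BMP2 libraries, 3.46-fold lower in Vehicle and 3.11-fold lower in Palo than in Matrigel-only. *Ltbp1*, which anchors latent ligand, was at 82.0, 66.0 and 42.0 CPM, and *Ltbp3*, which does too, at 142, 104 and 135 CPM. *Ltbp2* was at 402, 346 and 578 CPM. None of the last 3 reached a 2-fold ratio between any pair of libraries, and for *Ltbp1* the nearest was 1.95-fold lower in Palo than in Matrigel-only.

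*Tgfbi* had the widest range among libraries as a ratio. It was at 118 CPM in Matrigel-only (113 to 123), 753 CPM in Vehicle (742 to 764) and 198 CPM in Palo (191 to 205). Vehicle stood 6.39-fold above Matrigel-only (6.12 to 6.67) and 3.80-fold above Palo, and Palo 1.68-fold above Matrigel-only. In thinned cells a *Tgfbi* UMI was found in 11.7%, 57.1% and 19.1%, and without thinning in 35.8%, 89.4% and 55.4%. Lymphocytes, the comparison class, had 0 *Tgfbi* UMIs in Matrigel-only and in Palo and 46.7 CPM in Vehicle, with a UMI in 3.05% of thinned cells there. The upper Poisson limit for 0 UMIs in the 71 Matrigel-only lymphocytes was 31.7 CPM.

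**Figure D2:**
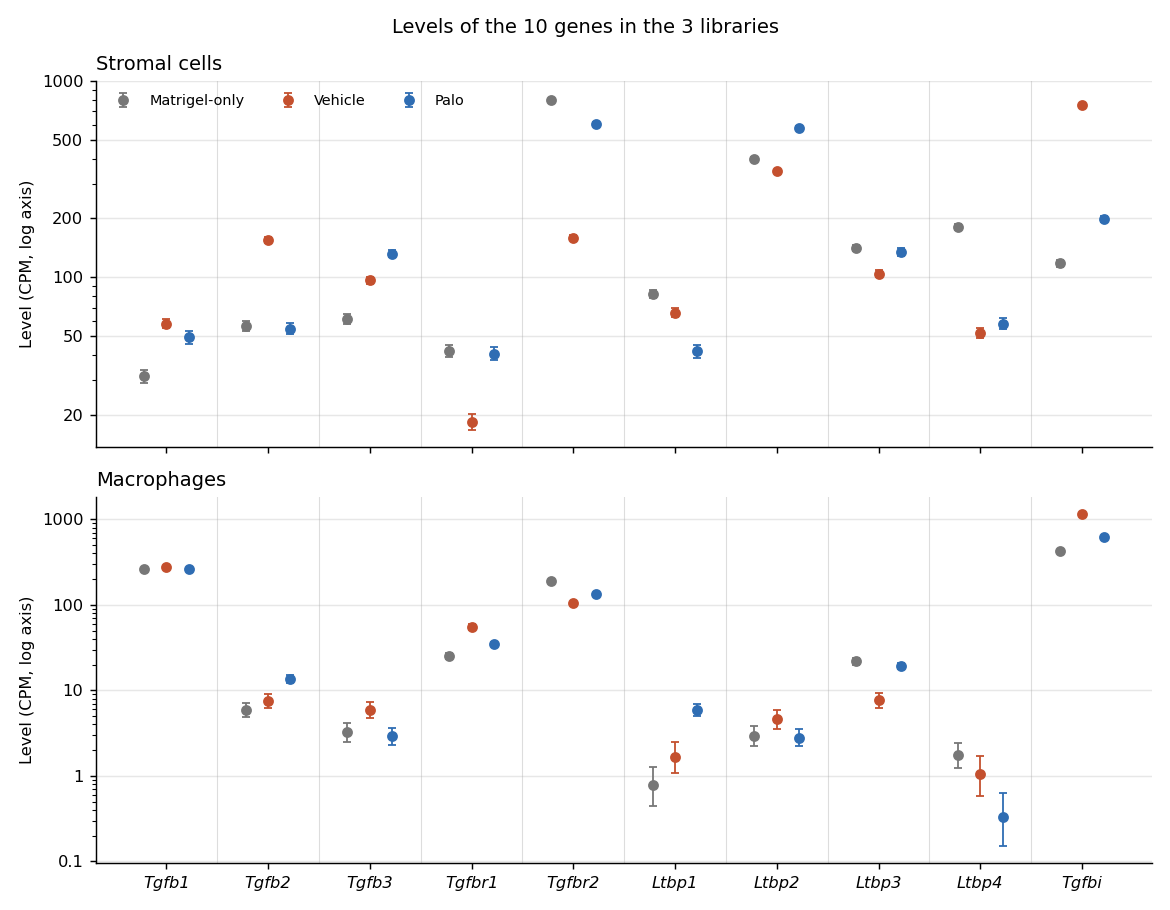
Level of each gene (y axis, CPM on a log axis) in stromal cells (top) and macrophages (bottom) of the 3 libraries, with exact Poisson 95% intervals as bars. In stroma *Tgfbr1* and *Tgfbr2* are lowest and *Tgfb2* and *Tgfbi* highest in Vehicle, while *Ltbp4* is low in both Vehicle and Palo. In macrophages *Tgfb1* stays between 262 and 278 CPM.

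The stroma of the libraries was made of different cells, and the members varied steeply among them. Cells with at least 2 UMIs each of *Acan* and *Col2a1*, the main proteoglycan and collagen of cartilage, numbered 310 in Vehicle and 0 in the other libraries. A further 386 Vehicle cells, 0 Matrigel-only cells and 3 Palo cells had at least 2 *Acan* UMIs without that much *Col2a1*. Of the rest, cells with a UMI of *Sox9*, the chondrogenic transcription factor, numbered 494, 435 and 406. Cells with a UMI of *Pi16*, a marker of adventitial fibroblasts, and none of these features made up 48.5%, 6.63% and 26.4% of stroma, or 1012, 91 and 312 cells. These groups were cut from counts, and a deeper cell is more likely to enter the first ones.

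*Tgfbr2* was lower at each step from the *Pi16* cells to the cartilage matrix cells of Vehicle. It was at 1102 CPM in *Pi16* cells, 185 CPM in *Sox9* cells, 73.0 CPM in *Acan* cells and 38.1 CPM in the cells with both cartilage matrix genes, 29.0-fold below the *Pi16* cells (25.1 to 33.6). Across libraries the *Pi16* cells were close, at 1180, 1102 and 1267 CPM in Matrigel-only, Vehicle and Palo, or 1.07-fold lower in Vehicle than in Matrigel-only. The *Sox9* cells were not, at 463, 185 and 412 CPM, or 2.50-fold lower in Vehicle than in Matrigel-only (2.35 to 2.67). The stroma outside all 4 groups gave 587, 156 and 449 CPM. So Vehicle was also the low library in the *Sox9* cells and in the stroma outside the groups, by less than over all stroma. These 2 sets were cut by marker UMIs and are not matched across libraries. Their cells can still hold fewer than 2 *Acan* UMIs and any number of *Col2a1* UMIs. The *Sox9* cells of Vehicle were also deeper, with a median of 18178 UMIs, against 14221 for Palo and 10604 for Matrigel-only. Whether the mix of cells within each set differed was not tested. Without any stromal cell holding an *Acan* or *Col2a1* UMI, the log2 ratio of Vehicle to Matrigel-only was -1.43 instead of -2.32, and that of Palo to Vehicle 1.03 instead of 1.92.

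*Tgfbr1* followed the same order in Vehicle, from 38.5 CPM in *Pi16* cells through 22.4 CPM in *Sox9* cells to 10.4 CPM in cartilage matrix cells. In *Sox9* cells it was at 43.2 CPM in Matrigel-only and 44.0 CPM in Palo, and 1.93-fold lower in Vehicle than in Matrigel-only. Without *Acan* or *Col2a1* cells its log2 ratios were -0.74 for Vehicle to Matrigel-only and 0.68 for Palo to Vehicle, so that neither call was kept.

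*Tgfbi* ran the opposite way, at 103 CPM in the *Pi16* cells of Vehicle, 611 CPM in *Sox9* cells, 829 CPM in *Acan* cells and 1070 CPM in cartilage matrix cells. It was 10.4-fold higher in cartilage matrix cells than in *Pi16* cells (8.69 to 12.6). In *Sox9* cells the 3 libraries gave 161, 611 and 241 CPM, and Vehicle was 3.78-fold above Matrigel-only (3.53 to 4.06). The *Pi16* cells had 47.6, 103 and 89.3 CPM.

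*Tgfb2* was nearly level among the chondrogenic groups of Vehicle, at 145, 151 and 157 CPM in *Sox9*, *Acan* and cartilage matrix cells, against 52.6 CPM in *Pi16* cells. Its highest level was in the 151 Vehicle stromal cells outside these groups, at 259 CPM, where Matrigel-only had 45.9 and Palo 52.6 CPM. This remainder is not matched across libraries, and whether its mix of cells differed was not tested. Over all stroma, 38, 99 and 8 cells of Matrigel-only, Vehicle and Palo had only 1 to 2% of UMIs from the stromal genes of the rule. A *Tgfb2* UMI was found in 55.0% of those 151 cells and in 73.9% of cartilage matrix cells. After thinning, which left out 34 of the 151, the shares were 23.8% (16.4 to 32.5) and 17.4% (13.3 to 22.0). In *Sox9* cells *Tgfb2* was 3.92-fold higher in Vehicle than in Matrigel-only (3.39 to 4.55), and in *Pi16* cells 1.49-fold lower (1.15 to 1.98).

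Of the groups with a level in each library, *Pi16* cells were highest in *Ltbp4* and *Ltbp1* and *Sox9* cells in *Tgfb3*. *Ltbp4* was at 287, 188 and 118 CPM in the *Pi16* cells of Matrigel-only, Vehicle and Palo and at 27.8 CPM in the cartilage matrix cells. Palo was below Matrigel-only by 2.80-fold in *Sox9* cells (2.44 to 3.22), 2.44-fold in *Pi16* cells (2.19 to 2.72) and 2.09-fold in the stroma outside the groups. Vehicle was below Matrigel-only by 2.36-fold in *Sox9* cells (2.10 to 2.66), but by 1.52-fold in *Pi16* cells (1.33 to 1.76) and 1.28-fold in the stroma outside the groups, which are no calls. *Ltbp1* in *Sox9* cells was at 39.6, 52.8 and 22.3 CPM, or 2.36-fold lower in Palo than in Vehicle (1.94 to 2.89), a call that the level over all stroma did not give. *Ltbp2*, of the fibrillin microfibrils, was at 781, 510 and 837 CPM in *Sox9* cells but at 89.9 CPM in cartilage matrix cells, 5.67-fold below the *Sox9* cells of that library (5.18 to 6.23). *Tgfb3* was at 93.0, 120 and 171 CPM in *Sox9* cells, and at 50.9 CPM in cartilage matrix cells. In *Pi16* cells *Tgfb3* was 2.38-fold higher in Palo than in Matrigel-only (1.98 to 2.85), from 72.2 against 30.4 CPM.

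**Figure D3:**
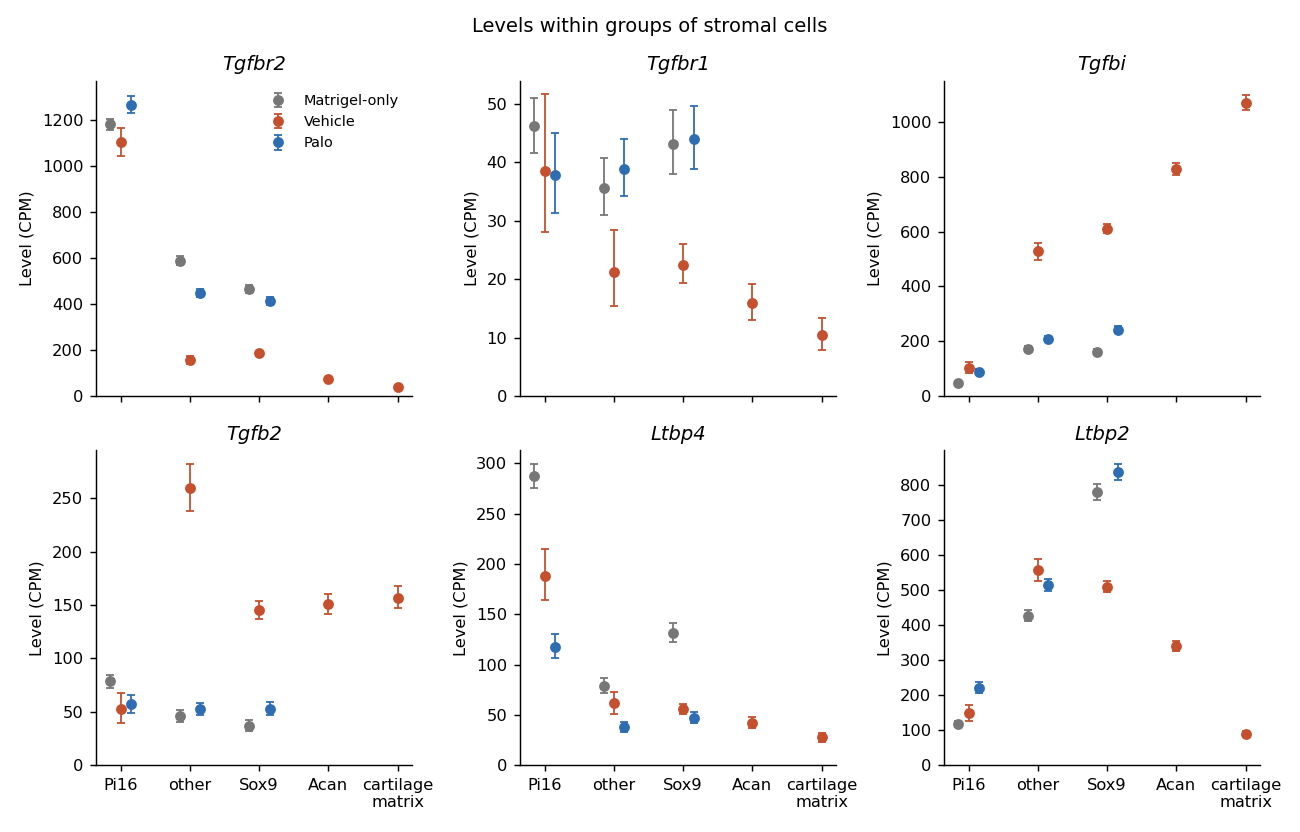
Level (y axis, CPM from 0) of 6 of the genes in 5 groups of stromal cells (x axis), with 1 colour per library and exact Poisson 95% intervals as bars. Only Vehicle has enough *Acan* and cartilage matrix cells for a level. *Tgfbr2* is between 1102 and 1267 CPM in the *Pi16* cells of the 3 libraries and lowest in the cartilage matrix cells of Vehicle, where *Tgfbi* is highest.

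In macrophages *Tgfb1* was the steadiest of the 10, and *Tgfbi* and *Tgfbr1* were the 2 called higher in Vehicle. Of the 10 genes, 6 passed the filter on low values, and *Tgfb3*, *Ltbp1*, *Ltbp2* and *Ltbp4* did not. Vehicle against Matrigel-only, 2 were called higher and 1 lower, with 6.48% of the 9551 genes tested called. Palo against Vehicle, 1 was higher and 0 lower, with 6.53% called, and Palo against Matrigel-only 1 was higher and 0 lower, with 2.69% called. The median log2 ratio over all genes was -0.17 for Palo against Vehicle and -0.17 for Palo against Matrigel-only, so that Palo ratios in macrophages are to be read against that shift. With TMM factors these medians became 0.03 and 0.01.

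*Tgfb1* was at 263 CPM in Matrigel-only (256 to 270), 278 CPM in Vehicle (269 to 286) and 262 CPM in Palo (256 to 268). The ratios lay within 1.06-fold of 1. *Tgfbi* was at 429 CPM (420 to 438), 1148 CPM (1130 to 1165) and 621 CPM (611 to 630). Vehicle was 2.68-fold above Matrigel-only (2.61 to 2.75), and Palo lay 1.85-fold below Vehicle, short of a call. Macrophages were also split by UMIs of *Ms4a7*, *Hal* and *Itgax*, into cells with 1 of the 3 and all others, and *Tgfbi* was at 1009 to 1208 CPM in the 4 groups of Vehicle against 381 to 525 CPM in those of Matrigel-only.

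The receptors parted in macrophages. *Tgfbr1* was at 25.4 CPM (23.2 to 27.7), 55.1 CPM (51.3 to 59.1) and 35.0 CPM (32.8 to 37.3), 2.17-fold higher in Vehicle than in Matrigel-only, where stroma had it lower. *Tgfbr2* was at 189, 104 and 135 CPM, 1.82-fold lower in Vehicle than in Matrigel-only. Among macrophages *Tgfbr2* was low in those with *Itgax* UMIs and without *Ms4a7* or *Hal*, at 41.7, 29.4 and 48.8 CPM. Those with *Ms4a7* UMIs alone had 255, 134 and 198 CPM. *Ltbp3* was at 21.9 CPM (19.9 to 24.0), 7.66 CPM (6.30 to 9.24) and 19.5 CPM (17.8 to 21.2), so that Vehicle was 2.85-fold below Matrigel-only and Palo 2.54-fold above Vehicle. The Palo call was lost, at a log2 ratio of 0.96, among macrophages with both *Csf1r* and *C1qa*.

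For some binding proteins the macrophage UMIs were near the proportion of stromal RNA. Set against the summed UMIs of the 12 stromal markers, *Ltbp2* in macrophages was at 0.772, 1.11 and 0.920 times its ratio in stroma of the same library, and *Ltbp4* at 1.03, 1.68 and 1.07 times. For *Ltbp1* the quotient was 1.01, 2.12 and 26.8, so that its Matrigel-only level was also in that proportion. The same quotient was 383, 128 and 594 for *Tgfbi* and 25.0, 54.7 and 42.5 for *Tgfbr2*. In macrophages *Ltbp2* was at 2.81 to 4.60 CPM and *Ltbp4* at 0.328 to 1.77 CPM, and these are not read as macrophage levels. Whether these UMIs came from stromal RNA was not tested.

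**Figure D4:**
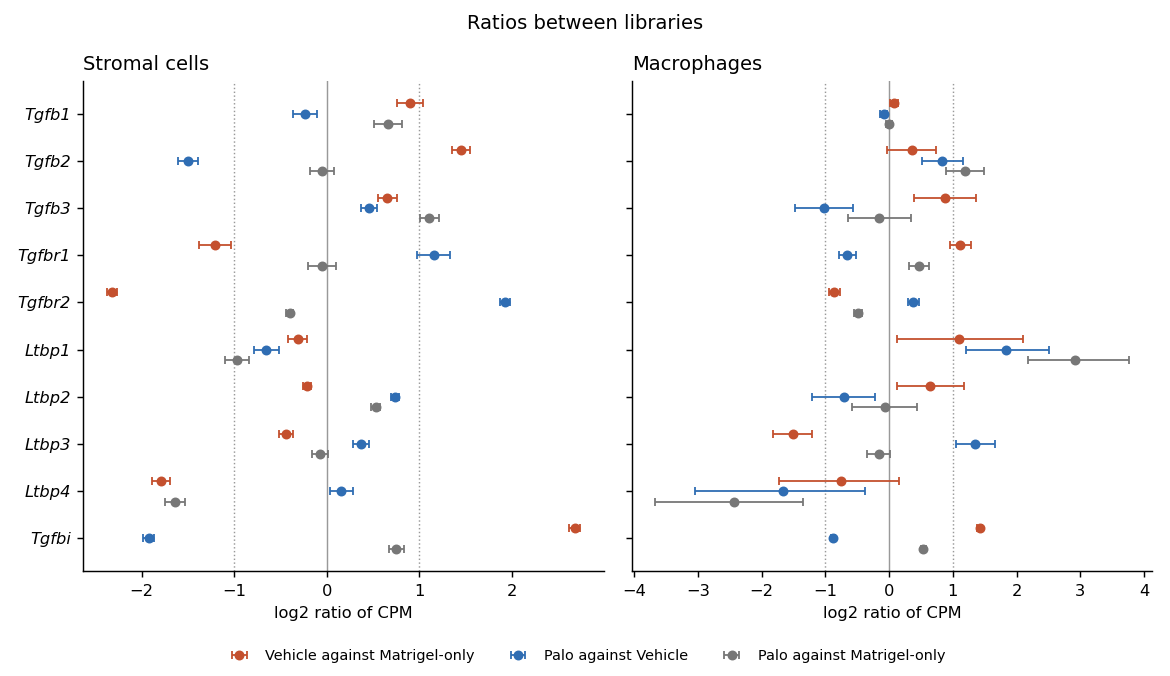
log2 ratios of CPM (x axis) between libraries for each gene, in stromal cells (left) and macrophages (right), with 95% conditional binomial intervals and dotted lines at a 2-fold ratio. *Tgfbr1* lies at -1.20 in stroma and 1.12 in macrophages for Vehicle against Matrigel-only. In stroma *Tgfbr2* and *Tgfbi* change sides between Vehicle against Matrigel-only and Palo against Vehicle, which share the Vehicle library.

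A small set of Palo macrophages carried most of the macrophage *Tgfb2* and nearly all of the *Ltbp1*. *Tgfb2* in macrophages was at 5.94 CPM in Matrigel-only (121 UMIs), 7.59 CPM in Vehicle (109 UMIs) and 13.5 CPM in Palo (371 UMIs), 2.28-fold higher in Palo than in Matrigel-only (1.85 to 2.82). *Ltbp1* was at 0.786, 1.67 and 5.94 CPM from 16, 24 and 163 UMIs, and the Matrigel-only level was in the proportion of stromal RNA. In Palo, 70 macrophages (1.24%) had UMIs of both *Alox15*, a lipoxygenase, and *Prg4*, the lubricant proteoglycan lubricin. There were 3 such cells in Vehicle and 0 in Matrigel-only. This split was chosen after the values were seen.

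These 70 cells held 158 of the 163 *Ltbp1* UMIs and 244 of the 371 *Tgfb2* UMIs of Palo macrophages. Within them *Ltbp1* was at 481 CPM (409 to 562), with a UMI in 56 cells, and *Tgfb2* at 743 CPM (653 to 842), with a UMI in 63 cells. They stood no higher than the other Palo macrophages in *Tgfb1*, at 250 against 262 CPM, and their median depth was 4433.5 UMIs. In the other Palo macrophages *Ltbp1* was at 0.184 CPM from 5 UMIs and *Tgfb2* at 4.68 CPM (3.90 to 5.57). That *Tgfb2* interval overlapped the one of Matrigel-only macrophages, at 5.94 CPM (4.93 to 7.10). The 3 Vehicle cells held 7 of 24 *Ltbp1* and 8 of 109 *Tgfb2* UMIs. Among the marker groups, macrophages with *Hal* UMIs and without *Ms4a7* or *Itgax* had the highest *Tgfb2*, at 34.8, 31.9 and 86.6 CPM in Matrigel-only, Vehicle and Palo. In Palo this *Hal* group held 20 *Ltbp1* UMIs, more than the 5 outside the 70 cells, so it includes some of them. Most of the UMIs lay in the larger set of Palo macrophages outside the groups with a single marker, 2115 cells against 211. That set held 137 *Ltbp1* UMIs in 49 cells, against 8 cells of the *Hal* group, and 247 *Tgfb2* UMIs, against 67.

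**Figure D5:**
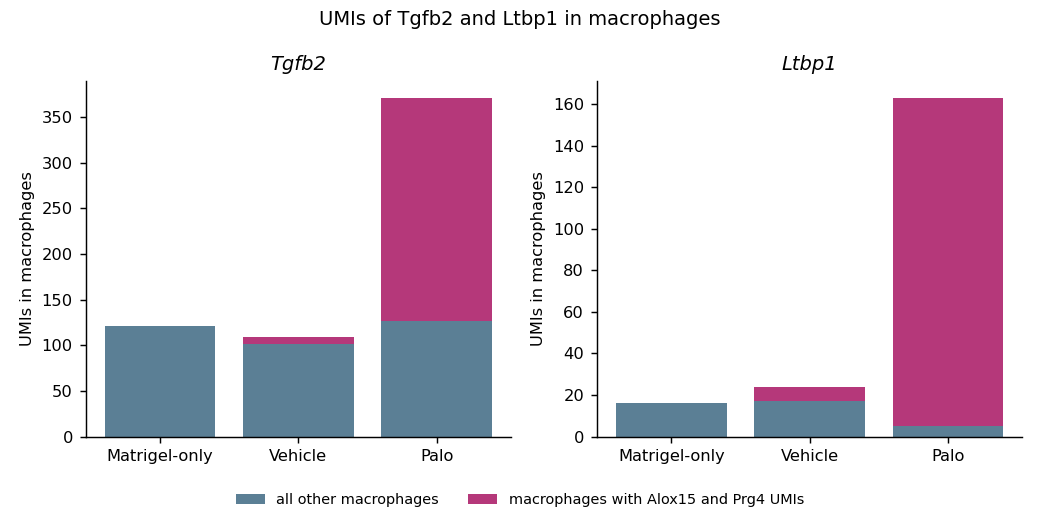
UMIs of *Tgfb2* and *Ltbp1* in macrophages of each library (y axis), split into cells with UMIs of both *Alox15* and *Prg4* and all other macrophages. In Palo these cells are 70 in number and hold 244 of 371 *Tgfb2* UMIs and 158 of 163 *Ltbp1* UMIs.

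Another 42 genes of the pathway were measured alongside, as coreceptors, activators of latent ligand, intracellular signalling proteins and response genes. In stroma 40 passed the filter on low values. Vehicle against Matrigel-only, 7 were higher and 8 lower, when 14.5% of all genes tested were called. Palo against Vehicle, 9 were higher and 5 lower (12.0% of all genes called), and Palo against Matrigel-only 2 were higher and 0 lower (3.11%). Their median log2 ratio was -0.02, 0.12 and 0.04, against -0.04, 0.02 and -0.03 over all genes. In macrophages 32 passed, with 11 higher and 1 lower, 0 higher and 12 lower, and 3 higher and 1 lower in the same order, beside 6.48%, 6.53% and 2.69% of all genes called. These calls include genes near stromal proportion, described below. They were *Postn*, *Lox*, *Tnc* and *Fbn1* for Vehicle against Matrigel-only and *Fbn1* for Palo against Matrigel-only. For Palo against Vehicle they were *Bmp1*, *Mmp2*, *Postn*, *Lox* and *Tnc*. In the calls against Matrigel-only, the Matrigel-only levels of *Mmp14* and *Timp1* were near stromal proportion as well. The median log2 ratio of those tested in macrophages was 0.42, -0.41 and 0.15, against 0.00, -0.17 and -0.17 over all genes. With TMM factors, 8 rather than 12 macrophage genes were called for Palo against Vehicle.

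The coreceptor betaglycan, *Tgfbr3*, which presents ligand to TGFBR2, was at 188 CPM in Matrigel-only, 32.1 CPM in Vehicle and 112 CPM in Palo stroma. *Fbn1*, fibrillin-1, on which the latent complexes are deposited, was at 3321, 616 and 2581 CPM, 5.39-fold lower in Vehicle than in Matrigel-only. *Lrrc32*, which holds latent TGF-β on the cell surface, was at 27.8, 6.02 and 38.5 CPM, and *Itgb3*, a subunit of an integrin that can release the ligand, at 93.6, 17.8 and 90.7 CPM. These 4 were lowest in Vehicle, like the receptors, and *Emilin1*, a matrix glycoprotein that restrains TGF-β1 processing, was highest there, at 145, 514 and 154 CPM. The pathway genes were not split by stromal group, and the part of the mix of stromal cells in their values was not tested. Of the 13 activation genes tested, 2 were higher and 5 lower in Vehicle than in Matrigel-only. Over all genes tested, 4.55% were called higher and 9.97% lower in that comparison. *Thbs1*, thrombospondin-1, an activator of latent ligand, was at 220, 522 and 446 CPM. It was called higher than Matrigel-only in Vehicle and also in Palo. The Palo ratio of 2.02-fold was just past the limit, and that call was lost with 5 CPM added.

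*Bambi*, a pseudoreceptor that dampens TGF-β family signals, was at 7.88, 71.5 and 13.7 CPM in stroma, 9.07-fold higher in Vehicle than in Matrigel-only. Of the 12 response genes tested, 4 were called higher there and 0 lower, beside 4.55% and 9.97% of all genes tested. The 4 were *Acta2*, *Tagln*, *Cnn1* and *Tnc*, the first 3 of them smooth muscle genes. *Cnn1*, calponin, was at 1.80, 19.5 and 2.40 CPM and *Acta2*, smooth muscle actin, at 176, 828 and 316 CPM. *Cnn1* passed the filter of 5 CPM only through its Vehicle level. Its calls, higher here and lower for Palo against Vehicle, therefore carry no weight of their own. The 6 mural cell markers, *Rgs5* and *Notch3* among them, summed to 18.2, 110 and 29.6 CPM in the same stromal cells, and their part in these values was not tested. *Tagln* was at 129, 301 and 327 CPM and was called higher in Palo than in Matrigel-only, at 2.53-fold.

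In macrophages the called genes included inhibitors of the pathway. Markers of some other cell types were also highest in the macrophages of Vehicle, and their part in these values was not tested. The 7 endothelial markers summed to 11.0, 56.4 and 7.62 CPM there, the 7 cartilage markers to 1.72, 57.7 and 1.28 CPM and the 6 mural markers to 1.67, 14.6 and 1.82 CPM. Of these lists, 1 endothelial marker in Vehicle reached 10% of macrophages, and 5 cartilage markers in Matrigel-only and 4 in Palo were at 0. The 4 adipocyte markers were instead highest in Matrigel-only macrophages, at a summed 127, 12.5 and 10.3 CPM. Keratinocyte markers differed less, at a summed 8.30, 8.99 and 6.63 CPM. *Smad7*, an inhibitory SMAD, was at 8.35, 38.6 and 16.9 CPM, and *Pmepa1*, which keeps SMAD2 and SMAD3 from the receptor, at 23.3, 162 and 29.3 CPM. The largest ratios of Vehicle to Matrigel-only were those of *Mmp14*, a membrane metalloproteinase, 18.3-fold, and *Timp1*, a metalloproteinase inhibitor, 10.4-fold. *Mmp14* was at 8.15, 149 and 11.9 CPM. Set against the stromal markers as above, the Vehicle macrophages held 18.6 times the stromal proportion of *Mmp14*, 23.2 times that of *Pmepa1* and 33.0 times that of *Smad7*. In Matrigel-only the quotient of *Mmp14* was 1.55 and that of *Timp1* 1.87, so their ratios are taken over levels near stromal proportion. For the matrix genes *Postn*, *Lox* and *Tnc*, also called higher in Vehicle macrophages, the Vehicle quotients were 1.17, 1.12 and 1.20. *Bmp1*, a protease of the matrix, and *Mmp2*, a gelatinase, called lower in Palo than in Vehicle, were at 1.18 to 1.30 and 1.09 to 1.59 over the libraries, and *Fbn1*, the gene called lower in Vehicle and in Palo than in Matrigel-only, at 0.774 to 1.26. These 6 genes are not read as macrophage levels, and the summed stromal markers in macrophages were at 333, 355 and 188 CPM. Whether their UMIs came from stromal RNA was not tested.

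Over 23 points, each a group of at least 50 stromal cells or macrophages in 1 library, the genes most like a member were found by Pearson's r of log2(CPM + 1) among 10501 genes. The points share libraries and contrast stroma with macrophages, so r is a description. For *Tgfbr2* these were *Marcks* (r = 0.965) and *Abl1* (0.950), and for *Tgfbr1* *Dock4* (0.871) and *Gdpd5* (0.836). For *Tgfb2* they were *Nupr1* (0.929) and *Pecr* (0.875). *Ltbp4* was nearest to *Ogn* (0.987) and *Serping1* (0.984), *Ltbp2* to *Adam12* (0.989) and *Ptprd* (0.984), and *Tgfbi* to *Hip1* (0.949) and *Ybx1* (0.929).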

How the data were processed

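Dissociated cells of 1 library per condition were measured by 10x droplet RNA sequencing. The deposited values are raw counts of UMIs for each gene and cell barcode, which the authors made with Cell Ranger 3.0.2 on the mm10 build. The submitters' notes also name Seurat 3.

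Cells with 200 to 6000 genes and at most 5% mitochondrial UMIs were kept, as in the study. CPM is the UMIs of a gene summed over a class per 1000000 UMIs of that class. Levels carry exact Poisson, shares exact binomial (Clopper-Pearson) and ratios conditional binomial 95% intervals. Ratios used no pseudocount. Shares of cells were taken after thinning to 1400 UMIs by the hypergeometric formula. Library totals were 44252421, 46317250 and 46901673 UMIs. Scrublet in scanpy 1.11.5 called 1, 3 and 0 cells by its own threshold and so did not work, and doublets stayed in. Leaving out the highest scores (609, 240 and 426 cells) was an alternative. edgeR 4.0.16 gave TMM factors only. Python 3.11.15, numpy 2.4.6, scipy 1.17.1 and pandas 2.3.3 were used, and the scripts were tested on simulated data.

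The members, lists, groups and alternatives were chosen with earlier results of these data known. All 10 members are named, with up to 6 called pathway genes of largest ratio per comparison and others where a count or a value beside them needed them, chosen after their values were seen. The genes most like *Tgfb3* are not reported here.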

Additional observations from a re-analysis of the deposited data

Results flagged for a closer look

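For some genes the ratio between libraries had opposite signs in stromal cells and in macrophages, at 1.5-fold or more in both, and this difference between the cell classes was not tested. For *Tgfbr1*, Vehicle against Matrigel-only, the log2 ratio was -1.20 in stroma and 1.12 in macrophages, a difference of -2.32, and Palo against Vehicle it was 1.16 and -0.66, a difference of 1.81. *Tgfb2*, Palo against Vehicle, gave -1.50 in stroma and 0.83 in macrophages, a difference of -2.33. *Ltbp1* gave differences of -2.48 for Palo against Vehicle and -3.88 for Palo against Matrigel-only. Without the *Alox15* and *Prg4* cells the macrophage log2 ratio of *Tgfb2* was -0.59 for Palo against Vehicle. *Ltbp1* was then at 0.184 CPM from 5 UMIs in Palo macrophages and at 0.786 CPM in Matrigel-only, where stromal proportion would give 0.221 and 0.779 CPM, so its ratios without these cells are not read. *Ltbp2*, Palo against Vehicle, gave a difference of 1.45 from 0.74 in stroma and -0.71 in macrophages, where its UMIs are in the proportion of stromal RNA.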

How the results depend on the processing

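In all, 16 other settings were tried, the one without *Alox15* and *Prg4* cells chosen after seeing the data. No paired analysis was possible because each condition had 1 library. All called ratios of the 10 genes kept their direction, except that of *Tgfb2* for Palo against Matrigel-only in macrophages, whose log2 ratio was -0.34 without the *Alox15* and *Prg4* cells (member calls then 0). The intervals of the levels behind that -0.34 overlapped, and the median log2 ratio over all genes in that setting was -0.17. Of the 16 called ratios, 12 stayed past 2-fold with 5 CPM added. Those lost included *Tgfbr1* for Palo against Vehicle in stroma and for Vehicle against Matrigel-only in macrophages. Without *Acan* or *Col2a1* cells, 9 of the 11 called stromal ratios stayed past 2-fold. Member counts for Palo against Vehicle in macrophages, 1 in the report, were 2 with TMM factors, 2 as a mean over cells, 0 with 5 CPM added, 4 from a mean of 1 CPM, 0 from 20 CPM and 4 at 1.5-fold. For Palo against Matrigel-only, also 1, they were 0 as a mean over cells, 0 with 5 CPM added, 3 from 1 CPM and 0 from 20 CPM, and in stroma 5 rather than 2 at 1.5-fold. Pathway gene counts for Palo against Matrigel-only in stroma, 2 in the report, were 1 without the highest Scrublet scores, 1 with 5 CPM added and 9 at 1.5-fold, and for Vehicle against Matrigel-only 23 rather than 15 at 1.5-fold. In macrophages they were 7 from 20 CPM for Vehicle against Matrigel-only (12 in the report), 7 with 5 CPM added and 6 from 20 CPM for Palo against Vehicle (12), and 2 with both *Csf1r* and *C1qa*, 1 with 5 CPM added, 2 from 20 CPM and 8 at 1.5-fold for Palo against Matrigel-only (4). A lower fold, a lower or higher filter and added CPM change these counts by construction, and for the others the cause was not tested. With TMM factors, 48.2% rather than 28.0% of calls over all genes for Palo against Vehicle in macrophages were higher, and 59.3% rather than 37.0% for Palo against Matrigel-only. Shares of cells moved with the depth of thinning. Thinned shares are given at 1 depth only, with unthinned shares beside some of them.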
